A study of Mus musculus with 6 samples.

Results

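The genes described here are 9 regulators of apoptosis, found by NCBI Gene identifier in a table of 16315 genes. They are the guardians Bcl2, Bcl2l1 (which encodes BCL-xL) and Mcl1, the pore-forming effector Bak1, the BH3-only genes Bid, Bad and Bcl2l11 (BIM), and the caspase inhibitors Cflar (c-FLIP) and Xiap. All 9 were in the table, and all 9 passed the filter on low values. RNA came from B16F10, a pigmented melanoma line of the C57BL/6 mouse, in a series about inhibiting xCT, the cystine importer of the cell surface. SAS, named in the labels only by these letters, was given for 24 h at a labelled 500 (unit written as μm) to 3 samples. The other 3 samples were given vehicle, 0.05% DMSO, and each sample gave 1 library. B16F10 is a single line grown in culture, and the labels name no separate cultures, so the p-values measure only how the libraries of a group scatter, and that scatter may be technical. The labels' protocol gives 24 h of incubation for both groups, but the table's columns call the SAS libraries 24h and the vehicle libraries 0h, so a day of culture cannot be told apart from the compound if 0h means cells taken before incubation.

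A cell dies through its mitochondria when BAK or BAX opens the outer membrane and cytochrome c leaks into the cytosol, where it assembles with APAF1 and activates the caspases. The guardians bind the effectors and their activators and keep the membrane closed, and the BH3-only proteins, which share only a short helix with the family, either occupy the guardians or act on the effectors. XIAP is known to inhibit caspases directly, and c-FLIP sits on activated death receptors in the place of the initiator caspase. In melanocytes the lineage factor MITF is known to drive BCL2, and melanoma cells commonly rely on MCL1 and BCL-xL.

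After SAS, mRNA of Cflar, Bcl2l1 and Mcl1 rose and mRNA of Bcl2l11 and Xiap fell, each by less than 2-fold. Bcl2, Bak1, Bid and Bad did not pass the test. Values are FPKM, fragment counts scaled to transcript length and library size. The test was limma on log2(FPKM + 1), run for the 10615 genes whose mean reached 0.5 FPKM. Log2 fold changes are on that scale and come out too small for genes of low level, so the ratio of mean FPKM is given too. At an adjusted p below 0.05, 5 of 9 members changed (55.6%), against 37.4% of all genes tested. Of the members 3 rose, against 18.9% of all genes tested, and 2 fell, against 18.5%. The 3 vehicle and 3 SAS values did not overlap for 6 of the 9, against 49.4% of all genes tested. With so many genes changed, 5 of 9 says little about the members as a set. Their median log2 fold change was 0.07, against -0.01 over all genes tested.

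Across the libraries, FPKM sums were 590238 to 617275 and 9746 to 9826 genes reached 1 FPKM. The fragments behind these values are unknown. Of the markers set for melanocytes, all 7 were in the table, with means of 17.6 to 3130 FPKM. Their sums were 7410 to 8360 FPKM in vehicle and 8730 to 10600 in SAS. Of these 7 markers 5 rose, against 18.9% of all genes tested. Of the markers of leukocytes, fibroblasts, endothelial cells and keratinocytes, 13 of 20 were in the table, and no value exceeded 0.94 FPKM. The summed leukocyte markers stood at 0.45 to 0.48 FPKM in vehicle and 0.73 to 0.95 in SAS, nearly all of it Lyz2, and the fibroblast markers at 1.16 to 1.41 and 0.86 to 0.96. The endothelial sum was 0.02 to 0.05 and 0.03 to 0.05 FPKM and the keratinocyte sum 0.08 to 0.09 and 0.14 to 0.21. Csf1r did not exceed 0.01 FPKM, and Krt5 was listed at 0 in every library. The part of these differences in the members' results was not tested. In such bulk RNA, fewer cells of a type and less RNA per cell cannot be told apart.

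Among the guardians, Bcl2l1 and Mcl1 were abundant and rose, whereas Bcl2 was scarce. Bcl2l1 (NCBI Gene 12048) was measured at 35.51, 32.31 and 34.15 FPKM in vehicle and at 46.28, 45.92 and 41.34 in SAS. Every SAS library was above every vehicle library. The mean went from 34.0 ± 1.61 to 44.5 ± 2.75 FPKM (SD, n = 3 libraries per group, as for all means here), a ratio of 1.31 and a log2 fold change of 0.38 (SE 0.06, limma adjusted p = 0.000969). Mcl1 (NCBI Gene 17210), whose protein is the shortest-lived of the guardians, was measured at 38.74, 35.26 and 35.47 FPKM in vehicle and at 41.94, 46.75 and 44.39 in SAS. Here too the groups were fully apart. Its mean went from 36.5 ± 1.95 to 44.4 ± 2.41 FPKM, a ratio of 1.22 and a log2 fold change of 0.27 (SE 0.06, limma adjusted p = 0.0055). Gene-level values do not separate the long and short splice forms of these genes, some of which are known to act in opposite directions.

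Bcl2 (NCBI Gene 12043), the founding member of the family, was measured at 1.81, 1.62 and 1.49 FPKM in vehicle and at 1.82, 1.79 and 1.71 in SAS. The groups overlapped. The log2 fold change was 0.07 with a 95% interval of -0.08 to 0.23 (limma adjusted p = 0.437), so the data leave room for a small difference in either direction. The summed FPKM of the 3 guardians was 72.1 ± 3.54 in vehicle and 90.6 ± 3.55 in SAS. As a description, Mcl1 made up 50.6% ± 0.616 of that sum in vehicle and 48.9% ± 2.15 in SAS. Bcl2l1 made up 47.1% ± 0.769 and 49.1% ± 2.1. The groups overlapped for these shares. Bcl2 made up only 2.27% ± 0.154 and 1.96% ± 0.0632 of the sum, and for this share every SAS library was below every vehicle library. The summed mRNA of these 3 guardians was thus almost entirely Mcl1 and Bcl2l1 in near-equal amounts in every library. With the further guardian Bcl2l2 added to the sum, Bcl2l2 made up 4.51% ± 0.389 in vehicle and 4.61% ± 0.146 in SAS.

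**Figure D1:**
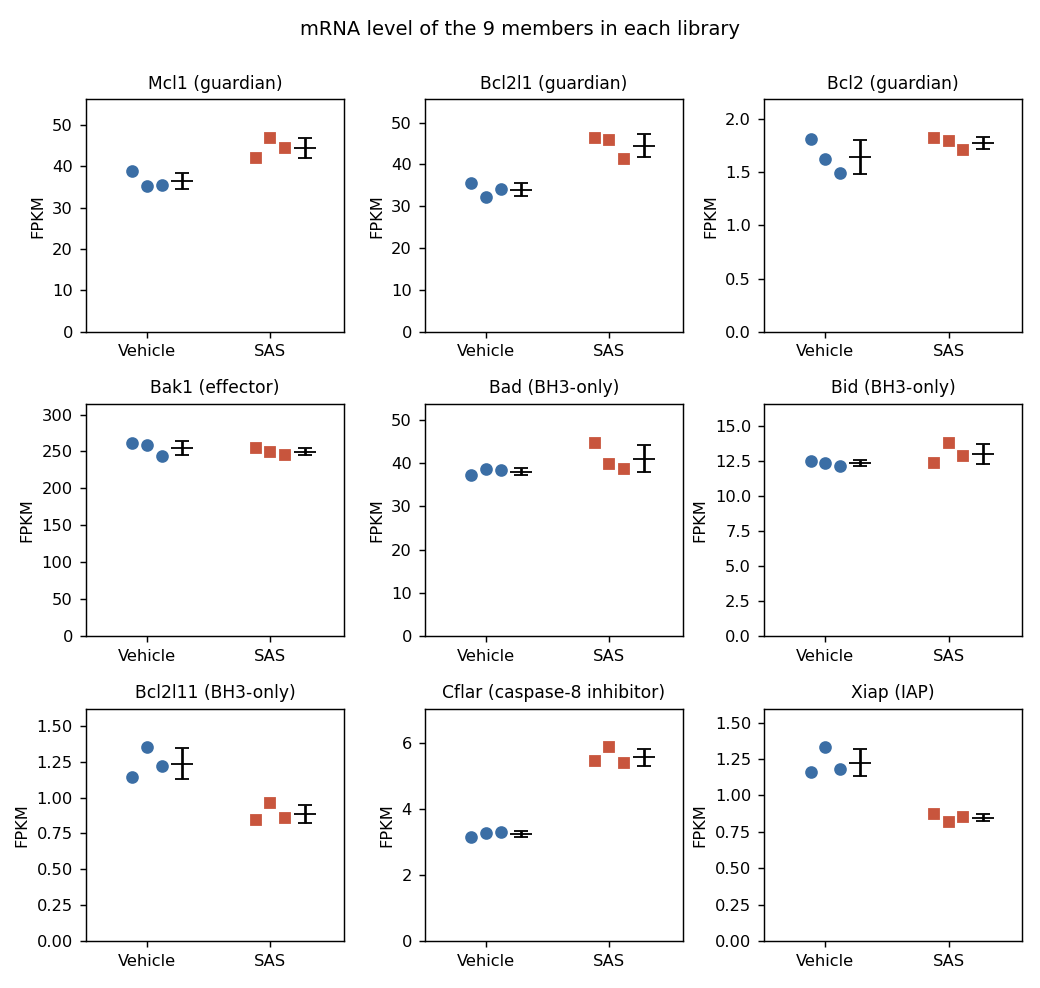
FPKM of each of the 9 genes (vertical axis, starting at 0) in the 3 vehicle libraries (circles) and the 3 SAS libraries (squares), with mean and SD beside each group. The SAS libraries lie fully above vehicle for Cflar, Bcl2l1 and Mcl1 and fully below it for Bcl2l11 and Xiap, while Bak1, Bid and Bcl2 overlap and Bad is parted by a narrow gap.

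The effector Bak1 (NCBI Gene 12018) was by far the most abundant of the 9 genes. It was measured at 261.79, 258.54 and 244.33 FPKM in vehicle and at 254.37, 249.07 and 245.02 in SAS, and its mean level exceeded that of 97.8% of the genes in the table. The SAS libraries all lay within the vehicle range, at 255 ± 9.29 and 249 ± 4.69 FPKM. The log2 fold change was -0.03 with a 95% interval of -0.14 to 0.08 (limma adjusted p = 0.675). Set against the guardians as a description, Bak1 stood at 699 ± 30.1 FPKM per 100 FPKM of Mcl1 in vehicle and 564 ± 38.3 in SAS. Per 100 FPKM of Bcl2l1 it stood at 751 ± 44.0 and 562 ± 27.2. In both ratios every SAS library was below every vehicle library, with Bak1 itself near its vehicle level and the guardians higher.

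Of the BH3-only genes, Bcl2l11 fell, and Bid and Bad did not pass. Bcl2l11 (NCBI Gene 12125) encodes BIM, which binds every guardian and can also activate the effectors. It was measured at 1.14, 1.35 and 1.22 FPKM in vehicle and at 0.84, 0.96 and 0.86 in SAS. All SAS libraries were below all vehicle libraries. The mean went from 1.24 ± 0.106 to 0.887 ± 0.0643 FPKM, a ratio of 0.717 and a log2 fold change of -0.24 (SE 0.07, limma adjusted p = 0.014). At this low level the size depends on the pseudocount, and with 0.1 in place of 1 the log2 fold change was -0.44. Without Vehicle replicate 2, the highest of its group, limma gave adjusted p = 0.0524 for Bcl2l11, just past the threshold. As a description, Bcl2l11 stood at 3.4 ± 0.444 FPKM per 100 FPKM of Mcl1 in vehicle and at 2.0 ± 0.0582 in SAS.

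Bid (NCBI Gene 12122), which is cut by caspase-8 and carries a death receptor signal to the mitochondria, was measured at 12.55, 12.38 and 12.16 FPKM in vehicle. In SAS it was measured at 12.39, 13.82 and 12.84 FPKM, and the groups overlapped. The log2 fold change was 0.07 with a 95% interval of -0.07 to 0.21 (limma adjusted p = 0.43). Bad (NCBI Gene 12015), which is held in the cytosol by phosphorylation, was measured at 37.17, 38.58 and 38.37 FPKM in vehicle and at 44.70, 39.78 and 38.68 in SAS. The groups did not overlap, but SAS replicate 3 lay only just above the highest vehicle library. The log2 fold change was 0.10 with a 95% interval of -0.03 to 0.24 (limma adjusted p = 0.215), and it was 0.04 without SAS replicate 1, the highest of that group.

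The caspase inhibitors moved in opposite directions. Cflar (NCBI Gene 12633) showed the largest change of the 9 genes. It was measured at 3.16, 3.28 and 3.31 FPKM in vehicle and at 5.45, 5.88 and 5.40 in SAS, with a wide gap between the groups. The mean went from 3.25 ± 0.0794 to 5.58 ± 0.264 FPKM, a ratio of 1.72 and a log2 fold change of 0.63 (SE 0.07, limma adjusted p = 6.05e-05). That fold change exceeded those of 98% of the genes tested. Caspase-8 mRNA (Casp8), whose protein c-FLIP restrains, also rose, from 11.7 ± 1.19 to 14.9 ± 1.94 FPKM (log2 fold change 0.32, limma adjusted p = 0.0226), although SAS replicate 2 lay within the vehicle range. Its call was lost without Vehicle replicate 1 or 3 or SAS replicate 1 or 3 (limma adjusted p = 0.0781, 0.0718, 0.0708 and 0.0533) and with no filter (adjusted p = 0.0748). As a description, Cflar stood at 28.3, 25.1 and 30.4 FPKM per 100 FPKM of Casp8 in vehicle and at 32.5, 45.6 and 36.0 in SAS, so the inhibitor was higher relative to the protease in each SAS library.

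Xiap (NCBI Gene 11798) was measured at 1.16, 1.33 and 1.18 FPKM in vehicle and at 0.87, 0.82 and 0.85 in SAS. All SAS libraries were below all vehicle libraries. The mean went from 1.22 ± 0.0929 to 0.847 ± 0.0252 FPKM, a ratio of 0.692 and a log2 fold change of -0.27 (SE 0.06, limma adjusted p = 0.00725), or -0.48 with a pseudocount of 0.1. Xiap has a long transcript poor in G and C, at 36.8% in its longest annotated form. It falls in the fifth of tested genes with the lowest GC content, where the median log2 fold change was -0.08 and 23.8% of genes fell, against 0.03 and 17.8% in the fifth with the highest. After a correction of each library for GC content and length, the log2 fold change of Xiap was -0.12 and the call was lost (limma adjusted p = 0.11). The other 4 calls among the 9 genes were kept under that correction.

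In order of level in vehicle, Bak1 came first at 255 FPKM, then Bad at 38.0, Mcl1 at 36.5, Bcl2l1 at 34.0, Bid at 12.4, Cflar at 3.25, Bcl2 at 1.64, Bcl2l11 at 1.24 and Xiap at 1.22. Bad and Mcl1, Mcl1 and Bcl2l1, and Bcl2l11 and Xiap overlapped in their libraries, and the other neighbours in this order did not. In SAS the order of the upper genes changed to Bcl2l1 at 44.5, Mcl1 at 44.4 and Bad at 41.1 FPKM, all overlapping. Cflar moved away from Bcl2, to 5.58 FPKM against 1.77. FPKM is scaled to transcript length, but the length used for each gene is not given in the sources consulted.

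**Figure D2:**
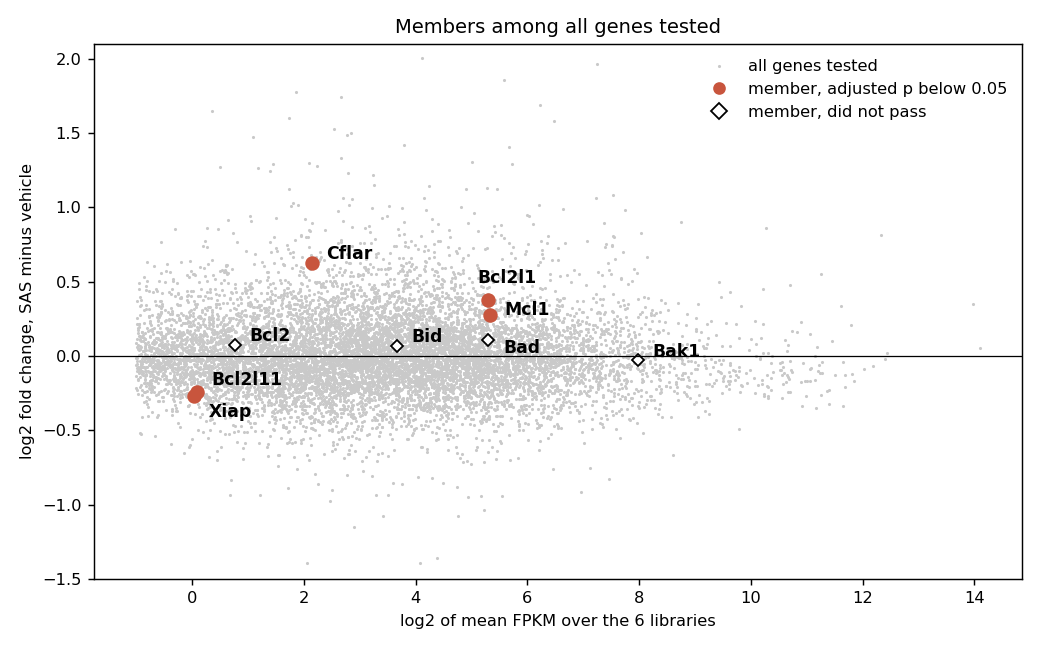
Log2 fold change of SAS against vehicle (vertical) by log2 of mean FPKM over the 6 libraries (horizontal) for the 10615 genes tested (grey), with the 9 genes labelled. Filled circles passed at an adjusted p below 0.05 and open diamonds did not. Cflar stands above most of the cloud at 0.63, while Bak1, Bid, Bad and Bcl2 lie close to 0.

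The windows around the annotated transcript starts of the 5 changed genes are shown because they are the DNA on which factors common to the genes that rose, or to those that fell, could be looked for. Each spans 250 bases before to 50 bases after the start farthest upstream in the mouse RefSeq promoter table (build GRCm38.p6). The positions are chr1:58711241-58711540 on the plus strand for Cflar and chr2:152831679-152831978 on the minus strand for Bcl2l1. Those of Mcl1, Bcl2l11 and Xiap are chr3:95658471-95658770, chr2:128125788-128126087 and chrX:42067586-42067885, all on the plus strand. The sources used here do not give the authors' build, and these positions were not used to read the table. Capitals mark matches, on either strand, to the letters described after the sequences.
Cflar: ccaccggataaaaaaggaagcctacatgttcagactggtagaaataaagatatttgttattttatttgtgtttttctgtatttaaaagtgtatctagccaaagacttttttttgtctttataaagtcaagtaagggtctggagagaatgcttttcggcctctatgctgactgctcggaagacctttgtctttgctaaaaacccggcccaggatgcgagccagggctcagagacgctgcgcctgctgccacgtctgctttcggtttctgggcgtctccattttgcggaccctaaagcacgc
Bcl2l1: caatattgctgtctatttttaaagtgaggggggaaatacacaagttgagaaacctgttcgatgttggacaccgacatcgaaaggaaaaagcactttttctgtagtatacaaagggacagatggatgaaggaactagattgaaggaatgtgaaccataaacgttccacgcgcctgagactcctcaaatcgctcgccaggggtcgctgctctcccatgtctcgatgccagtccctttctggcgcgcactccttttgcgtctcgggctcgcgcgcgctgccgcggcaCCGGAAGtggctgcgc
Mcl1: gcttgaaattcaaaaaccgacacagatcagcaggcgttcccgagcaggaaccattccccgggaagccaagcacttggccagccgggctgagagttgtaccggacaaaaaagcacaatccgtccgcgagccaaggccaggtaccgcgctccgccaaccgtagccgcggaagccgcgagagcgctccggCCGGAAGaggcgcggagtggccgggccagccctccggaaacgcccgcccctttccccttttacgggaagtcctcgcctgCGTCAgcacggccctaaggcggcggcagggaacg
Bcl2l11: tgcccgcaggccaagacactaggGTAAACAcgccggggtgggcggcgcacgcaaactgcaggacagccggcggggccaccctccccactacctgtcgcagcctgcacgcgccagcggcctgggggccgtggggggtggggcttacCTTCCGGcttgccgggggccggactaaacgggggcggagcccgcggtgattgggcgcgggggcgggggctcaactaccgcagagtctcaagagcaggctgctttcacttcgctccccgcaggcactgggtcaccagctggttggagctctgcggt
Xiap: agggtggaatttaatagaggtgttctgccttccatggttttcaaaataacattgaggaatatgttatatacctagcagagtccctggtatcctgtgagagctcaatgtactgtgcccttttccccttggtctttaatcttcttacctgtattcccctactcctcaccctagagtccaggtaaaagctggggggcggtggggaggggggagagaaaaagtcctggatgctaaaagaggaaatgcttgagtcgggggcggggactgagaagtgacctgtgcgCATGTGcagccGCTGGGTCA

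The 9 genes have 15 such windows in that table, and all were searched for 9 short motifs on both strands. Bcl2l1 and Mcl1, both higher in SAS, each hold the ETS letters CCGGAAG, with the first base at 35 relative to the start in Bcl2l1 and at -63 in Mcl1. The reverse complement of the same letters lies in the window of Bcl2l11, which fell, and 8.86% of all 32851 windows hold them. The FOXO letters GTAAACA occur in 3.65% of all windows and, among the 15, only in that of Bcl2l11 (first base at -227 relative to the start), a gene known to be a FOXO target. The window of Cflar holds none of the 9 motifs. The NRF2-type letters TGACNNNGC, found in 12.4% of all windows, lie in the Xiap window and in that of the start of Bcl2l1 farthest downstream, so in 1 gene that fell and 1 that rose. The MITF letters CATGTG (14.2% of all windows) lie in the same pair of windows. The CRE half-site TGACG (20.8%) lies in Bcl2, Mcl1 and a further Xiap window, and an NF-kB motif of GGGA and CC spaced 4 bases apart (20.7%) in Bak1 and in the second windows of Bcl2l11 and Xiap. CACGTG (7.15%), the STAT letters TTCNNNGAA (8.3%) and the AP-1 letters TGANTCA (7.81%) are in none of the 15. A match is a run of letters and was not tested as a binding site.

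Beyond the 9 genes, the same families held further genes that moved. Of their other tested genes, 3 of 7 rose and 2 fell, against 18.9% and 18.5% of all genes tested. The guardian Bcl2l2 (BCL-w) rose from 3.4 ± 0.21 to 4.38 ± 0.0611 FPKM (log2 fold change 0.29, limma adjusted p = 0.00674), so that 3 of 4 guardians tested rose and none fell. The effector-like gene Bok rose from 0.987 ± 0.241 to 1.49 ± 0.0866 FPKM (limma adjusted p = 0.0117). Bax, the partner effector of Bak1, stood above it in every library, at 322 ± 19.4 and 364 ± 21.5 FPKM, and narrowly missed the threshold (log2 fold change 0.17, limma adjusted p = 0.0525). It passed after quantile normalization (adjusted p = 0.0194), after scaling to equal FPKM sums (adjusted p = 0.0299) and under a replicate block (adjusted p = 0.0387). Among BH3-only genes, Bmf rose from 0.78 ± 0.0458 to 1.16 ± 0.07 FPKM (limma adjusted p = 0.00546). Bbc3, which encodes the p53-driven initiator PUMA, fell from 7.38 ± 0.212 to 6.32 ± 0.283 FPKM (log2 fold change -0.19, limma adjusted p = 0.0393). That call did not survive leaving out any one library, with limma adjusted p from 0.0569 to 0.115, nor a common sum (adjusted p = 0.0746) or no filter (adjusted p = 0.0565).

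In the IAP family, which carries the BIR domain, Birc5 (survivin) was the most abundant and fell from 216 ± 7.14 to 165 ± 3.42 FPKM (log2 fold change -0.39, limma adjusted p = 0.000229). Survivin is known first for its place in the chromosomal passenger complex of mitosis. The other 3 genes of that complex, Aurkb, Incenp and Cdca8, fell too, by 0.42, 0.33 and 0.34 on the log2 scale (limma adjusted p = 0.000693, 0.00407 and 0.00115). All 4 genes of the complex thus fell, against 18.5% of all genes tested. A link between these falls was not tested. Birc6 did not pass, at 3.47 ± 0.746 and 3.83 ± 0.542 FPKM (limma adjusted p = 0.466). Several family genes were too low to test. Birc2 did not exceed 0.53 FPKM and Birc7 (livin) 0.02. Birc3 stood at 0.27 to 0.31 FPKM in vehicle and 0.34 to 0.41 in SAS. Naip5, which has near-identical copies that may share its reads, stood at 0.32 to 0.43 and 0.04 to 0.16. Naip2 of the same family went the other way, at 0.04 to 0.09 FPKM in vehicle and 0.1 to 0.12 in SAS. Outside the IAPs, the BH3-only gene Pmaip1 (NOXA) was also too low to test and did not exceed 0.01 FPKM. The Bcl2a1 genes were not analysed here.

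Around the members, the rest of the machinery split as well. Of IAP antagonists, Diablo (SMAC) rose from 32.2 ± 2.27 to 39.8 ± 2.36 FPKM (limma adjusted p = 0.00552), Septin4 fell from 2.73 ± 0.0321 to 1.82 ± 0.0557 FPKM (limma adjusted p = 0.000683), and Htra2 did not pass. Besides Casp8, the initiator caspase Casp2 changed, and it fell from 13.5 ± 0.326 to 9.64 ± 0.398 FPKM (limma adjusted p = 0.000348). Of the 6 apoptosome and released factor genes, only Dffb, the caspase-activated nuclease, passed, from 2.16 ± 0.197 to 1.62 ± 0.125 FPKM (limma adjusted p = 0.0144, and 0.0651 without Vehicle replicate 1). Apaf1 and Cycs, which form the apoptosome, did not pass, with log2 fold changes of -0.04 and 0.003. Of 6 death receptor and adaptor genes tested, 3 rose and 0 fell, against 18.9% and 18.5% of all genes tested. The TRAIL receptor Tnfrsf10b rose from 4.51 ± 0.261 to 6.76 ± 0.54 FPKM (log2 fold change 0.49, limma adjusted p = 0.000587) and the adaptor Tradd from 20.6 ± 0.566 to 25.4 ± 1.28 FPKM (limma adjusted p = 0.00361). Tnfrsf1a, the TNF receptor, rose from 59.6 ± 1.76 to 69.1 ± 5.39 FPKM (limma adjusted p = 0.0251). Its call was lost without Vehicle replicate 1 or 3 or SAS replicate 2 or 3 (limma adjusted p = 0.0765, 0.0665, 0.0757 and 0.0922), with no filter (adjusted p = 0.0533) and after the GC correction (adjusted p = 0.0897). Fas stayed at or below 0.05 FPKM.

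**Figure D3:**
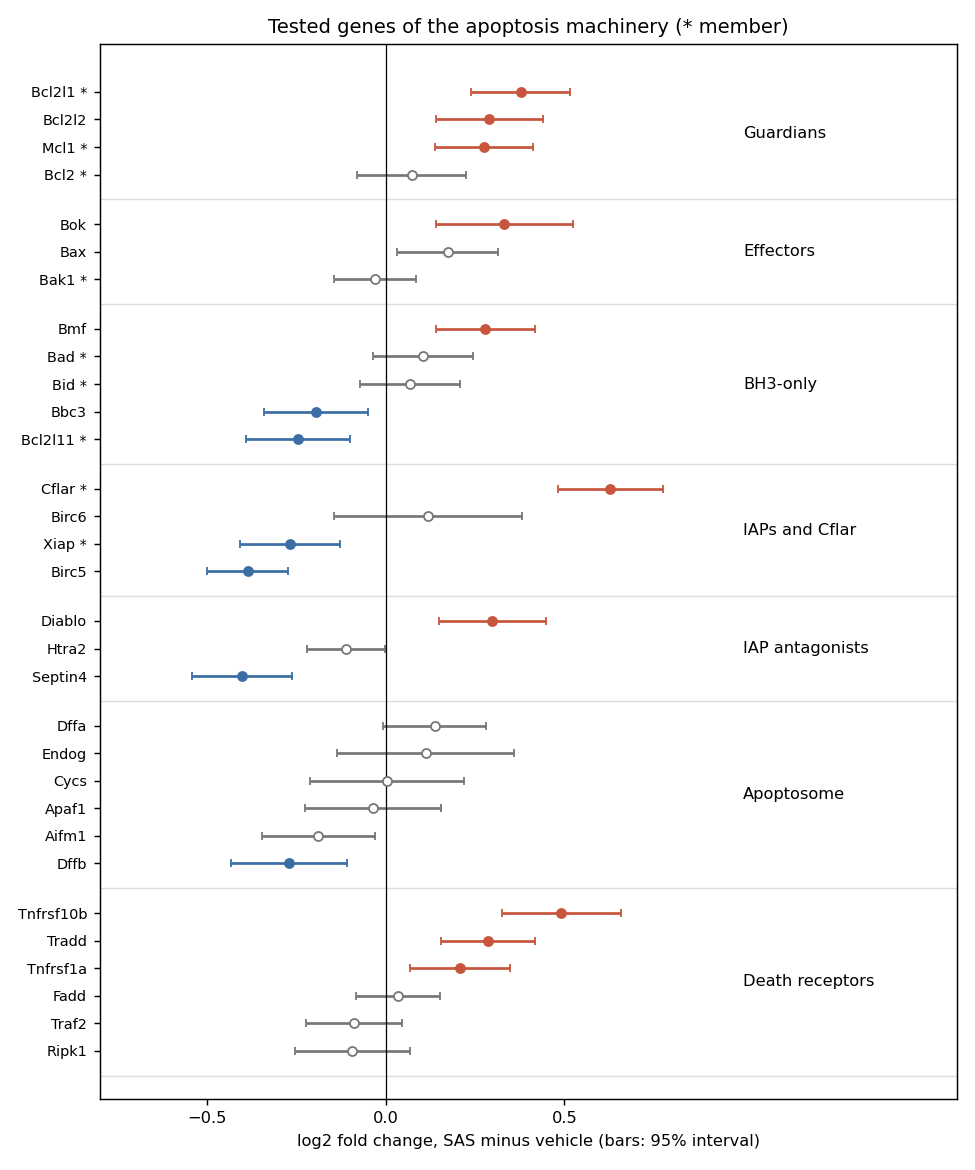
Log2 fold change of SAS against vehicle (horizontal, with 95% intervals) for every tested gene of 7 apoptosis lists, with the 9 genes starred. Filled points passed at an adjusted p below 0.05. Guardians lie at or above 0 and include 3 that rose, whereas BH3-only genes and IAP antagonists hold points that passed on either side. In the group of IAPs and Cflar, Cflar passed above 0, and the IAPs that passed, Xiap and Birc5, lie below 0.

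Regulators that act on the 9 proteins were counted in the same way. Of all genes tested, 18.9% rose and 18.5% fell. None of 7 ligases and deubiquitinases tested passed by limma, among them Huwe1 and Usp9x, which remove and spare MCL1, at log2 fold changes of -0.001 and -0.19. At an unadjusted limma p below 0.05, 2 of the 7 did, Usp9x and Trim17. At least 37.4% of all genes tested lie below it too, since that share passed the adjusted threshold. Of the 14-3-3 proteins and kinases that keep BAD in the cytosol, 2 of 16 tested fell and none rose. Those were Ywhae, from 572 ± 31.9 to 461 ± 20.2 FPKM (limma adjusted p = 0.00249), and Pim1, from 3.71 ± 0.167 to 2.53 ± 0.189 FPKM (limma adjusted p = 0.00106). Vdac2, the channel that holds BAK in the outer membrane, fell from 195 ± 6.01 to 165 ± 3.2 FPKM (limma adjusted p = 0.00431), and Tmbim1 rose from 31.9 ± 1.22 to 41.0 ± 3.13 FPKM (limma adjusted p = 0.00191). Of 13 transcription factors tested that are known to act on genes of the family, 3 rose and 5 fell. Stat3 rose from 13.3 ± 0.5 to 17.5 ± 0.79 FPKM and Jun from 9.68 ± 1.17 to 12.5 ± 0.724 FPKM (limma adjusted p = 0.000952 and 0.00915). Mitf, also a melanocyte marker, rose from 15.9 ± 1.83 to 19.4 ± 1.12 FPKM (limma adjusted p = 0.0214). Its call was not followed under the alternatives, and a link to Bcl2 was not tested. Ddit3, the CHOP gene, known as an activator of Bcl2l11, fell from 32.0 ± 3.3 to 20.5 ± 1.02 FPKM (limma adjusted p = 0.000151). Whether the fall of Bcl2l11 is linked to it was not tested. Nfkb1 fell from 17.3 ± 0.848 to 11.4 ± 0.774 FPKM (limma adjusted p = 0.000147). Of the 6 tested BCL2-related genes outside the core family, Bnip3, a mitophagy receptor, alone passed, from 38.5 ± 13.2 to 53.8 ± 2.88 FPKM (limma adjusted p = 0.0351). Its vehicle libraries ranged from 26.95 to 52.86 FPKM, and leaving out any library other than Vehicle replicate 3 ended the call, with limma adjusted p from 0.054 to 0.12. Robust estimation (adjusted p = 0.14) and no filter (adjusted p = 0.132) ended it too.

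Counting every gene of these lists other than the 9, 13 of 79 tested rose and 17 fell, together 38.0%, which is close to the 37.4% of all genes tested. Their median log2 fold change was -0.03.

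**Figure D4:**
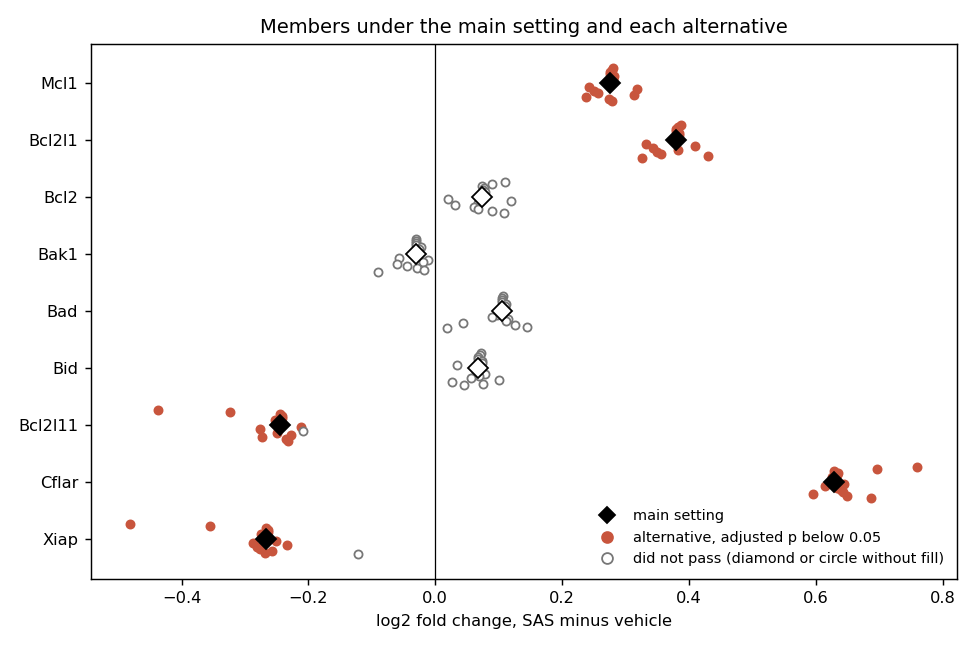
Log2 fold change (horizontal) of each of the 9 genes under the main setting (diamond) and each alternative (circles), filled where the adjusted p was below 0.05. All alternatives kept the direction of all 9 genes, and the only calls lost were Bcl2l11 without Vehicle replicate 2 and Xiap after correction for GC content and length.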

How the data were processed

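Total RNA libraries of the 6 samples were made by BGISEQ-500 protocols, as the labels' protocols state. FPKM values with 2 decimals, in 1 table, are what the authors deposited, per the file headers. FastQC, HISAT and Bowtie2 are named without role or version, per the submitters' processing notes. The sources used here do not give the FPKM program, the build or the annotation. Columns named 24h were matched to SAS, whose treatment label alone gives 24 h, and 0h columns to vehicle by elimination, with the last digit as the replicate.

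Symbols came from RefSeq GRCm38.p6 by NCBI Gene identifier, for 16206 of 16315 rows (99.3%). Depth is unknown: of 741 low genes, 4 moved in whole steps (tolerance 0.15), so no reads were recovered and no count test was run. Because FPKM are relative, large changes in abundant genes shift all others. At most 3.73% of the genes above 0 had identical values in any library pair.

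Values entered limma 3.58.1 (R 4.3.3, trended prior variance) as log2(FPKM + 1), for the 10615 genes whose mean reached 0.5 FPKM, with p adjusted by Benjamini-Hochberg over all of them at 0.05. The procedure was tested on simulated data with independent errors and far fewer changed genes than were called here. That test does not cover errors shared between libraries. No list was tested as a set. Some genes of the lists are not reported here. The members and lists were chosen with earlier results of these data known. Otherwise all tested guardians, effectors, BH3-only genes and IAPs are named, and up to 4 changed genes with the largest absolute log2 fold change in other lists. A few others (untested genes, Fas, Apaf1, Cycs, Htra2, Huwe1, Usp9x, Trim17, Mitf) were named after their values were seen, as was the ETS motif. Alternatives were pseudocounts of 0.1 and 0.5, no filter or a filter at 5 FPKM, 3 scalings, a replicate block, 3 variance models and leaving out each library. A GC content and length correction (longest GENCODE M21 transcript, 99.0% of tested genes) was an addition made with the data in view. Python 3.11.15, pandas 2.3.3, numpy 2.4.6, scipy 1.17.1 and matplotlib 3.10.9 served for tables and plots.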

Additional observations from a re-analysis of the deposited data

How the results depend on the processing

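Across 18 alternatives no member changed direction, and 156 of 158 member values kept their side of the threshold. Leaving out each library in turn gave 2899 to 3768 changed genes and 4 or 5 changed members. With only genes of at least 5 FPKM, 5 members were tested and 2 changed, because Bcl2, Bcl2l11, Cflar and Xiap were not tested. With Bcl2l2 added to the guardian sum, the shares of Bcl2l1 were 45.0% in vehicle and 46.8% in SAS, those of Mcl1 48.3% and 46.7%, and that of Bcl2 in SAS 1.87%, by construction. Leaving out 1 library gave Bcl2 shares of 2.22 to 2.36% in vehicle and 1.93 to 1.99% in SAS. Those of Bcl2l1 were 46.7 to 47.4% and 47.9 to 50%, and those of Mcl1 50.4 to 50.9% and 48.0 to 50.1%. With so few libraries per group such a shift cannot exceed the SD, so these ranges only describe the shares. Birc6, not called, ranged from -0.002 (without Vehicle replicate 3) to 0.239 (without Vehicle replicate 2) on the log2 scale. With a replicate block 4345 genes changed and 5 members; the replicate numbers were not taken as pairs, since deviations of same-numbered libraries correlated at -0.08, 0.145 and 0.234 and Vehicle replicate 1 correlated best with SAS replicate 2 (0.347). Scalings moved the median of all genes by at most 0.007 on the log2 scale. Unknown depth limits what the genes near 1 FPKM can show.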
